A study of Mus musculus with 16 samples.

Results

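Dusp1, Dusp2, Dusp4, Dusp5, Dusp6, Dusp10, Spry1, Spry2, Spred1 and Spred2 encode inhibitors of the MAP kinase pathways, and all 10 were found by symbol among the 38918 features measured in mouse pre-B cells. MAP kinases are enzymes that are switched on by phosphorylation at the end of a relay that starts at a receptor and, for ERK, runs through Ras and Raf. Dual-specificity phosphatases of the Dusp family remove the activating phosphates from the kinases themselves, while Sprouty and Spred proteins act upstream, between the receptor, Ras and Raf. Several of these genes are themselves switched on by ERK signalling in many cell types, which makes them a feedback loop. In pre-B cells, precursors of B lymphocytes, the preBCR uses the adaptor BLNK to reach its downstream enzymes.

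The cells were pre-B cells of Blnk-/- mice, so by their label every library lacked the normal BLNK protein. They all carried a BLNK-ERt2 fusion delivered by retrovirus and labelled as overexpressed and inducible with tamoxifen; the sources used here give neither the promoter driving the fusion nor how many clones or animals the cells came from. The 4 conditions were a control and stimulation for 0.5, 1.5 or 5 h, and the stated aim was to identify genes regulated by preBCR signalling. Each condition was 1 library read in 4 sequencing lanes that share an index, so there is no biological replicate and no test between conditions. Every ratio compares one library with another, and its 95% interval covers counting error only.

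Summed over lanes, the libraries held 34533362 total exon reads in the control, 33864004 at 0.5 h, 32631061 at 1.5 h and 30746189 at 5 h. At these depths a count of 0 allows 3 reads, or 0.0869 to 0.0976 CPM, where CPM is reads per 1000000 total exon reads. Reads at Blnk lay between 3516 and 3806 CPM and at Esr1, the gene of the oestrogen receptor, between 94.7 and 109 CPM; a count per gene does not separate the fusion from the deleted gene, so it does not check the deletion. The 9 pre-B markers analysed summed to 6210, 6029, 5524 and 5158 CPM from control to 5 h. Stromal markers summed to at most 0.245 CPM, with 3 of 7 at 0 in every library. Erythroid and megakaryocyte markers summed to 2.54 to 2.98 CPM. Of 9 T and NK markers, 8 stayed under 1 CPM and 3 were at 0, and their sum of 14.2 to 21.0 CPM came almost wholly from Klrb1c. Of 9 myeloid markers 6 stayed under 1 CPM, and their sum went from 73.8 CPM in the control to 70.8, 62.9 and 40.4 CPM, most of it Itgam at 69.0, 66.3, 58.5 and 35.9 CPM. The part of these markers in the ratios given here was not tested. In bulk RNA, fewer cells of a type and less RNA per cell cannot be told apart.

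The promoters of Dusp1, Dusp2 and Dusp5 are shown because these genes had the largest ratios in each direction among the Dusp genes and carry short motifs known to bind signal-responsive factors. They are RefSeq sequences of build GRCm38.p6, written 5′ to 3′ on the gene's strand and ending at the last base before the gene start in the deposited tables. Dusp1 lies on the minus strand, and its stretch covers chr17:26508520-26508722. In capitals are the palindrome TGACGTCA, the cAMP response element bound by CREB and ATF proteins, and a second copy of its first letters, TGACGT.
Dusp1: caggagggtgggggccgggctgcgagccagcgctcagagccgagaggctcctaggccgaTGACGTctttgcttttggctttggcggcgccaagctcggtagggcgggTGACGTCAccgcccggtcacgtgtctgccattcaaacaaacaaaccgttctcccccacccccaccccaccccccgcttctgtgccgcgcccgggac
The Dusp2 stretch covers chr2:127335909-127336158 on the plus strand, with the E-box CACGTG in capitals.
Dusp2: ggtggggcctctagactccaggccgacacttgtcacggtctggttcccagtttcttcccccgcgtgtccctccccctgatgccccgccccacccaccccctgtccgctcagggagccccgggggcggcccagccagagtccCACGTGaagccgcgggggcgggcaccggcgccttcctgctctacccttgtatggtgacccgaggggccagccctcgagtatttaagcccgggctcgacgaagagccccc
The Dusp5 stretch covers chr19:53528895-53529108 on the plus strand. The capitals mark 2 CArG boxes, the element bound by serum response factor, which lie side by side with no base between them.
Dusp5: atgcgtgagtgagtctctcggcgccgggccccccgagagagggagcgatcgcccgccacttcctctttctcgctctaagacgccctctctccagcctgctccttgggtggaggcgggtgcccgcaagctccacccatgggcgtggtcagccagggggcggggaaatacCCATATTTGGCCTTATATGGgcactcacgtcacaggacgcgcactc

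Among the nuclear phosphatases, Dusp2 and Dusp1 rose at 0.5 h and fell again by 1.5 h. A gene was called higher or lower when its ratio was at least 2-fold after 1 CPM was added to each library and the higher library held at least 5 CPM. At 0.5 h 2 of the 10 genes were called higher, beside 0.284% of the 9516 genes measured, and 0 were called lower, beside 0.0210%. Of the genes called higher, Dusp1 reached 5 CPM only in the 0.5 h library, where it was high. Its call was lost in other settings, given below. Dusp2, also known as PAC-1, is a nuclear phosphatase of activated lymphocytes that acts on ERK. Dusp2 (chr2:127336159-127338376, build mm10) was at 35.2 CPM in the control, 122 CPM at 0.5 h, 55.3 CPM at 1.5 h and 32.3 CPM at 5 h. Every lane at 0.5 h (116 to 128 CPM) and at 1.5 h (53.6 to 57.6 CPM) lay above every control lane (33.8 to 36.2 CPM), while the 5 h lanes (31.7 to 33.7 CPM) lay below all of them. Lanes are repeat reads of 1 library, so lanes that lie apart are no replicated support for a change, here or for the genes below. They can lie apart at small ratios, as those of Dusp2 did at 5 h. The share of all genes with lanes apart is not given. The Dusp2 level at 0.5 h was 3.48 times the control level (3.26 to 3.71), a log2 ratio of 1.77, and stood 10th from the highest of 9516 genes. At 1.5 h the ratio was 1.57 (1.46 to 1.69), outside the call, and at 5 h it was 0.918 (0.843 to 0.999).

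Dusp1, also known as MKP-1, is a nuclear phosphatase of p38, JNK and ERK and a classic immediate early gene. Dusp1 (chr17:26505590-26508519) was at 2.72 CPM in the control, 7.41 CPM at 0.5 h, 2.60 CPM at 1.5 h and 2.05 CPM at 5 h, from 94, 251, 85 and 63 reads. The 4 lanes at 0.5 h held 6.76 to 7.97 CPM, all above the control lanes at 2.20 to 3.04 CPM, whereas the lanes of the later libraries overlapped the control. Its ratio at 0.5 h was 2.72 (2.14 to 3.49), a log2 ratio of 1.18 and 23rd from the highest. With 5 CPM added in place of 1 CPM this log2 ratio was 0.68, and with a floor of 20 CPM the gene was not measured, so both settings end the call. The control and the later libraries held less than 5 CPM, so Dusp1 was measured only through the 0.5 h library, where it was high. It was therefore not called against control at 1.5 h or 5 h. The ratios there were 0.957 (0.705 to 1.30) at 1.5 h and 0.753 (0.538 to 1.05) at 5 h.

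Dusp4, or MKP-2, is a nuclear phosphatase of ERK and JNK. The level of Dusp4 (chr8:34807297-34819894) was 9.44 CPM in the control, 13.3 CPM at 0.5 h, 15.5 CPM at 1.5 h and 11.7 CPM at 5 h. The lanes at 0.5 h (12.9 to 13.5 CPM) and 1.5 h (14.7 to 16.5 CPM) did not overlap the control lanes (8.64 to 10.1 CPM), and those at 5 h (9.83 to 13.2 CPM) did. The ratio to control was 1.40 (1.22 to 1.62) at 0.5 h, 1.64 (1.42 to 1.89) at 1.5 h and 1.24 (1.07 to 1.45) at 5 h, none of which met the call.

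**Figure D1:**
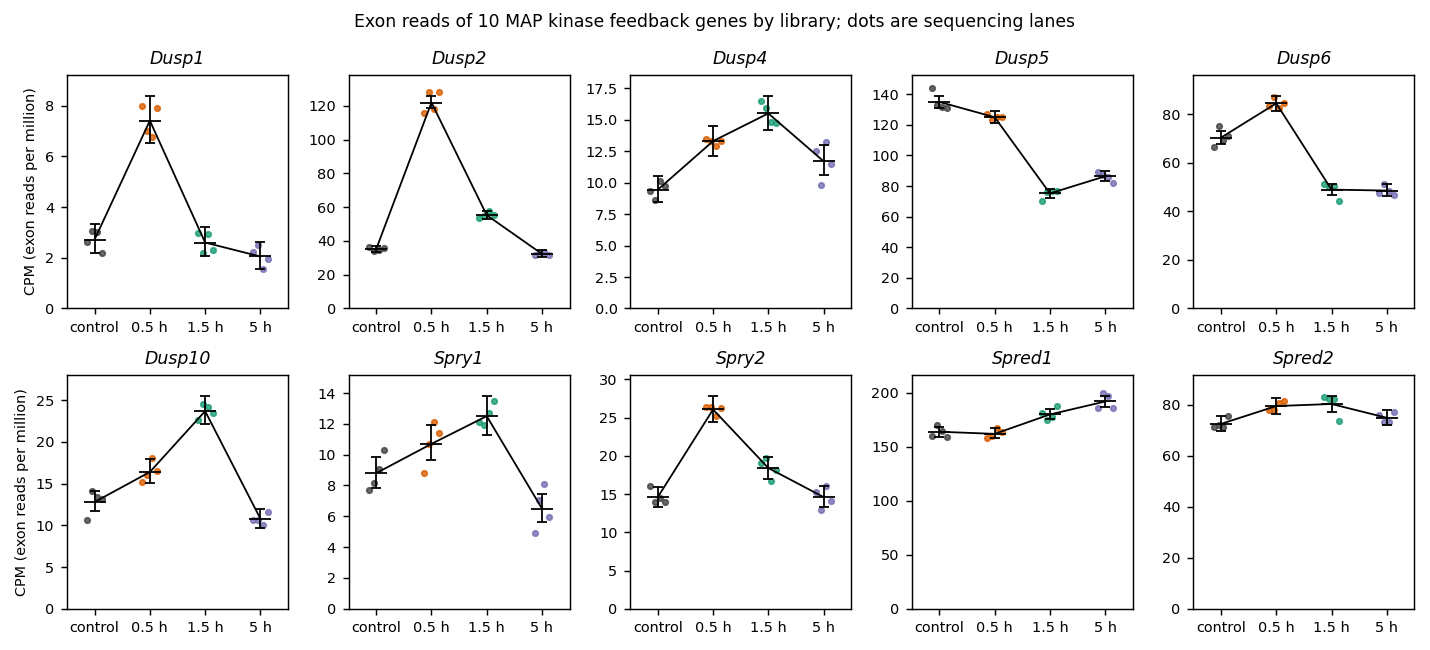
Exon reads in CPM (linear axis from 0) of the 10 genes in the control, 0.5 h, 1.5 h and 5 h libraries. Horizontal marks joined by lines are library values with 95% Poisson intervals and dots are the 4 lanes, which are repeat reads of 1 library; Dusp2 goes from 35.2 to 122 CPM at 0.5 h and back to 32.3 CPM at 5 h, while Dusp5 goes from 135 to 75.2 CPM at 1.5 h.

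Dusp5 was the gene of the 10 that was furthest below control. It encodes a nuclear phosphatase that is specific for ERK. Dusp5 (chr19:53529109-53542431) was at 135 CPM in the control, 125 CPM at 0.5 h, 75.2 CPM at 1.5 h and 86.4 CPM at 5 h. All lanes at 0.5 h (123 to 127 CPM), 1.5 h (70.4 to 77.1 CPM) and 5 h (82.3 to 89.3 CPM) lay below the control lanes (131 to 144 CPM). The level was 1.08-fold lower at 0.5 h (1.03 to 1.12), 1.79-fold lower at 1.5 h (1.71 to 1.88) and 1.56-fold lower at 5 h (1.49 to 1.64). The log2 ratio of -0.84 at 1.5 h did not meet the call and stood 49th from the lowest of 9512 genes.

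Dusp6, or MKP-3, is the cytoplasmic counterpart of Dusp5, specific for ERK and a common marker of ERK activity. Dusp6 (chr10:99263231-99267488) was at 70.3 CPM in the control, 84.4 CPM at 0.5 h, 48.9 CPM at 1.5 h and 48.5 CPM at 5 h. The lanes at 0.5 h (82.4 to 87.1 CPM) lay above the control lanes (66.4 to 74.9 CPM), and those at 1.5 h (44.0 to 51.2 CPM) and 5 h (46.8 to 51.1 CPM) below them. Its ratio to control was 1.20 (1.14 to 1.27) at 0.5 h, and it was 1.44-fold lower at 1.5 h (1.35 to 1.53) and 1.45-fold lower at 5 h (1.36 to 1.55). None of these met the call.

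Dusp10 was highest at 1.5 h. Its product, MKP-5, acts on JNK and p38 rather than on ERK. Dusp10 (chr1:184013302-184075636) was at 12.8 CPM in the control, 16.4 CPM at 0.5 h, 23.7 CPM at 1.5 h and 10.8 CPM at 5 h. The lanes at 0.5 h (15.2 to 18.0 CPM) and at 1.5 h (22.6 to 24.5 CPM) were above all control lanes (10.7 to 14.1 CPM), and the lanes at 5 h (10.04 to 11.6 CPM) overlapped them. Against control the ratio was 1.28 (1.13 to 1.46) at 0.5 h, 1.85 (1.64 to 2.08) at 1.5 h and 0.839 (0.726 to 0.970) at 5 h. The log2 ratio of 0.84 at 1.5 h was 113th from the highest and did not meet the call. At 1.5 h 0 of 9 measured genes were called higher, beside 0.641% of 9512 genes, and 0 lower, beside 0.210%. At 5 h 0 of 9 were called higher, beside 0.336% of 9520 genes, and 0 lower, beside 0.399%. Dusp1, under 5 CPM in each pair, was the gene not measured.

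Sprouty proteins are adaptors that restrain signalling from receptors to Ras and Raf. Spry2 (chr14:105891949-105896819) was at 14.6 CPM in the control, 26.0 CPM at 0.5 h, 18.4 CPM at 1.5 h and 14.6 CPM at 5 h. Its lanes at 0.5 h (25.2 to 26.4 CPM) and 1.5 h (16.7 to 19.7 CPM) were above the control lanes (13.9 to 16.1 CPM), and the 5 h lanes (12.97 to 16.04 CPM) overlapped them. The ratio at 0.5 h was 1.78 (1.60 to 1.99), which did not meet the call although it stood 40th from the highest, and it was 1.26 (1.12 to 1.42) at 1.5 h and 1.001 (0.879 to 1.14) at 5 h. Spry1 (chr3:37639947-37644598), its close relative, was at 8.80 CPM in the control, 10.7 CPM at 0.5 h, 12.5 CPM at 1.5 h and 6.50 CPM at 5 h. Of its stimulated lanes, those at 1.5 h (11.9 to 13.5 CPM) stood apart from the control lanes (7.69 to 10.3 CPM), while those at 0.5 h (8.79 to 12.1 CPM) and 5 h (4.93 to 8.09 CPM) overlapped them. Spry1 ratios to control were 1.22 (1.05 to 1.43) at 0.5 h, 1.42 (1.22 to 1.66) at 1.5 h and 0.739 (0.615 to 0.886) at 5 h, with no call. Gm42922, annotated over the start of Spry1 on the other strand, was not analysed here, and without the strand of counting its reads cannot be told apart from those of Spry1.

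The Spred genes varied least. Their products carry a Sprouty-related domain, and Spred1 brings the Ras inactivator neurofibromin to the membrane. Spred1 (chr2:117121374-117182279) was at 164 CPM in the control, 162 CPM at 0.5 h, 180 CPM at 1.5 h and 192 CPM at 5 h. The lanes at 1.5 h (175 to 188 CPM) and 5 h (186 to 200 CPM) lay above the control lanes (159 to 170 CPM), while those at 0.5 h (158 to 167 CPM) overlapped them. Its largest ratio was 1.17 (1.13 to 1.22), at 5 h. Spred2 (chr11:19924375-20024026) was at 72.5 CPM in the control, 79.5 CPM at 0.5 h, 80.3 CPM at 1.5 h and 74.9 CPM at 5 h. Only the 0.5 h lanes of Spred2 (78.0 to 81.4 CPM) cleared the control lanes (71.2 to 75.6 CPM), and its largest ratio was 1.11 (1.05 to 1.17), at 1.5 h.

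**Figure D2:**
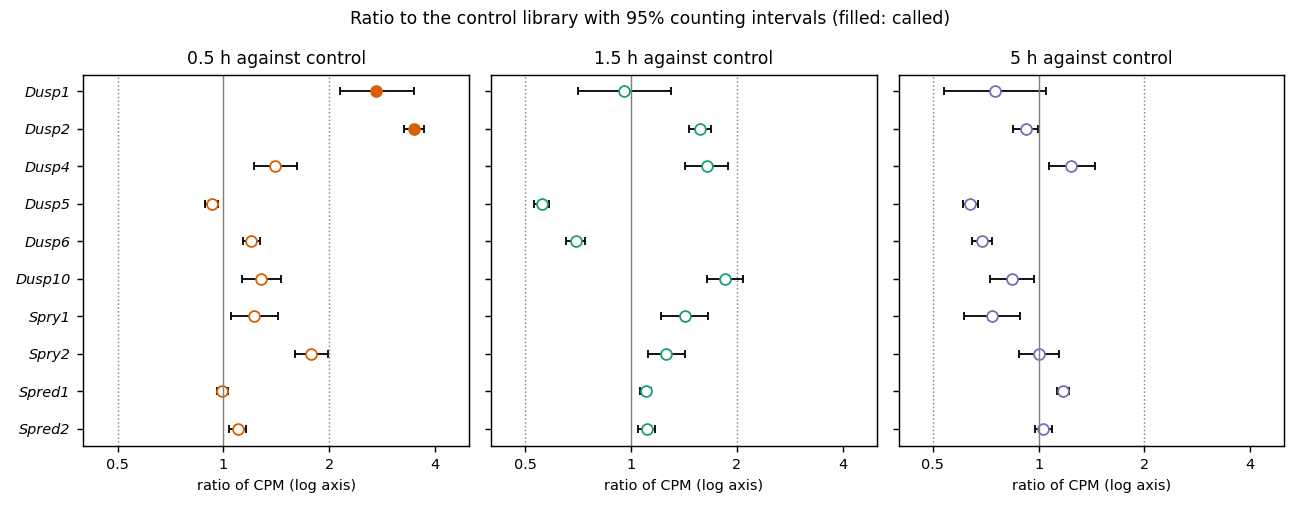
Ratio of CPM to the control library on a log axis for each of the 10 genes at 0.5, 1.5 and 5 h, with 95% counting intervals; filled circles met the call and dotted lines mark 2-fold. Dusp1 and Dusp2 are the filled circles at 0.5 h, at 2.72 and 3.48, and Dusp5 lies furthest left at 1.5 h, at 0.557.

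The comparisons of successive libraries avoid the control, though each shares a library with the comparisons above. From 0.5 to 1.5 h 2 of 10 genes were called lower, beside 0.221% of 9499 genes, and 0 higher, beside 0.189%. These were Dusp1, 2.85-fold lower (2.22 to 3.68), and Dusp2, 2.21-fold lower (2.09 to 2.34). Dusp1 was measured here, too, only through the 0.5 h library, where it was high. With 5 CPM added, the log2 ratio of Dusp1 went from -1.22 to -0.71 and its call was lost, as it was with a floor of 20 CPM. Both genes had fallen to or toward their control level. The ERK-specific pair was also lower without meeting the call: Dusp6 was 1.72-fold lower (1.62 to 1.83) and Dusp5 1.66-fold lower (1.58 to 1.75). Dusp10 went the other way, with a ratio of 1.44 (1.29 to 1.61).

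From 1.5 to 5 h 1 of 9 measured genes was called lower, beside 0.444% of 9453 genes, and 0 higher, beside 0.0952%. This was Dusp10, 2.20-fold lower (1.93 to 2.51). Its log2 ratio of -1.07 became -0.87 with 5 CPM added and -0.90 when all reads in the gene were counted, and both settings end the call. Spry1 came next at 1.93-fold lower (1.62 to 2.29), followed by Dusp2 at 1.71-fold lower (1.58 to 1.85), neither called. Dusp5 was the one gene of the phosphatases that was higher at 5 h than at 1.5 h beyond its counting interval, with a ratio of 1.15 (1.09 to 1.21).

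Described together, the 10 genes had a median log2 ratio of 0.30 at 0.5 h, where the median of all measured genes was -0.003. Their medians, with Dusp1 kept in though under 5 CPM, were 0.23 at 1.5 h, beside -0.005, and -0.18 at 5 h, beside 0.003. Summed over the 6 Dusp genes the level was 265 CPM in the control, 369 CPM at 0.5 h, 221 CPM at 1.5 h and 192 CPM at 5 h. The sum over the 4 Sprouty and Spred genes was 259, 279, 291 and 288 CPM in the same order. Both sums are weighted toward genes with many reads, in the control Dusp5 at 135 CPM, Dusp6 at 70.3 CPM and Spred1 at 164 CPM. They hide genes that went the other way, such as Dusp10 with a ratio of 1.85 at 1.5 h and Spry1 with 0.739 at 5 h. The 3 comparisons with control share that library, so their values are set side by side and not compared.

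Levels of different genes were set against each other as exon reads per kilobase of exon and per 1000000 total exon reads. In the control Dusp5 stood highest at 54.5 (53.0 to 56.1) and Dusp1 lowest at 1.01 (0.816 to 1.24). Between them, in falling order, were Dusp6 at 25.2, Spred1 at 24.1, Dusp2 at 17.6, Spred2 at 15.7, Spry2 (interval 6.40 to 7.64), Dusp10 at 4.22, Dusp4 at 3.45 and Spry1 at 3.03. The intervals of Dusp6 and Spred1 overlapped, as did those of Dusp10 and Dusp4 and of Dusp4 and Spry1, so these neighbours were not told apart. At 0.5 h Dusp2 was the highest of the 10, at 61.1 (59.2 to 62.9), above Dusp5 at 50.6 (49.1 to 52.1). At 1.5 h Dusp5 was at 30.4 (29.2 to 31.6), above Dusp2 at 27.6 (26.4 to 28.9), whose interval overlapped that of Spred1 at 26.6 (25.9 to 27.3). At 5 h Dusp5 at 34.9 (33.6 to 36.3) and Spred1 at 28.3 (27.6 to 29.0) led, and Dusp2 at 16.1 was within the interval of Spred2 at 16.2.

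**Figure D3:**
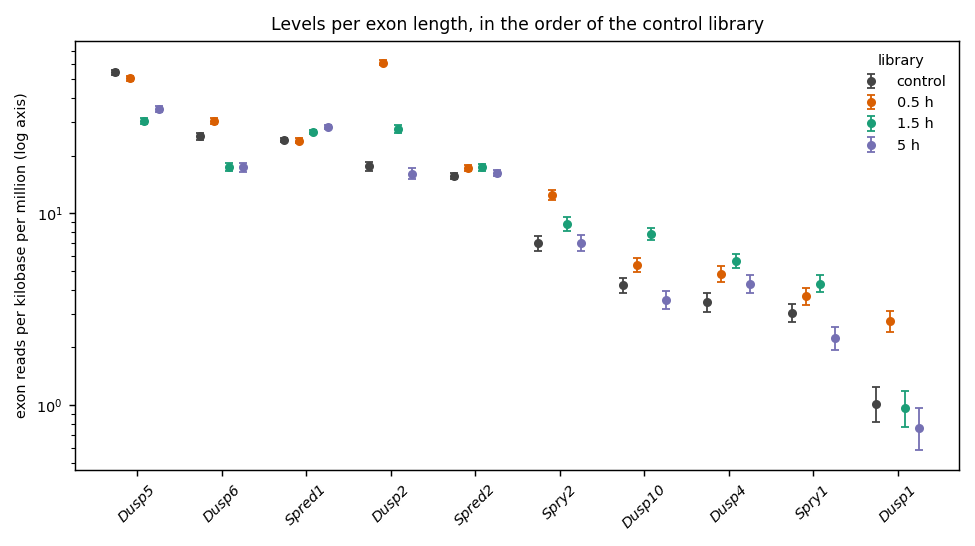
Exon reads per kilobase per 1000000 total exon reads (log axis) of the 10 genes in the 4 libraries, with 95% Poisson intervals, in the order of the control library. Dusp2 moves from the fourth place in the control, at 17.6, to the first at 0.5 h, at 61.1, and Dusp1 stays lowest throughout.

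Reads inside a gene but outside its exons can come from unspliced RNA or from unannotated transcripts, and they are given beside the exon reads, scaled to total exon reads. Such reads made up 15.9, 15.8, 16.4 and 17.2% of all gene reads from control to 5 h. A gene was called on them at a ratio of at least 1.5 with at least 100 such reads in both libraries together, a rule chosen after the values were seen. At 0.5 h 5 of the 10 genes had enough reads and 3 met the rule, 2 higher and 1 lower, beside 3.75% of 9858 genes higher and 2.21% lower. Dusp10 and Spry2 were the higher ones and Dusp5 the lower one.

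For Dusp5 the reads outside exons were close to their lowest at 0.5 h, when its exon reads were still near the control. There were 700 reads outside exons in the control, 419 at 0.5 h, 391 at 1.5 h and 436 at 5 h, or 20.3, 12.4, 11.98 and 14.2 per 1000000 total exon reads. The 4 control lanes held 150 to 198 such reads each and the lanes at 0.5 h 101 to 111. At 0.5 h this was 1.64-fold lower (1.45 to 1.85), at a time when the exon reads were 1.08-fold lower (1.03 to 1.12). At 1.5 h the reads outside exons were 1.69-fold lower (1.49 to 1.92) and the exon reads 1.79-fold lower (1.71 to 1.88). The share of Dusp5 reads outside exons was 13.1% (12.2 to 14.00) in the control, 9.001% (8.19 to 9.86) at 0.5 h, 13.7% (12.5 to 15.1) at 1.5 h and 14.1% (12.9 to 15.4) at 5 h. It was thus lowest at 0.5 h, with an interval apart from the other 3. An antisense transcript annotated over the start of Dusp5, AC137853.2, was not analysed here, and the sources used here do not give the strand of counting.

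Reads outside exons of Dusp10 were furthest from control at 0.5 h, above it. Reads outside its exons numbered 145 in the control, 245 at 0.5 h, 191 at 1.5 h and 144 at 5 h. The lanes at 0.5 h held 57 to 66 and the control lanes 29 to 42. The ratio to control was 1.72 (1.40 to 2.13) at 0.5 h, 1.39 (1.12 to 1.74) at 1.5 h and 1.12 (0.880 to 1.41) at 5 h, while the exon ratio was higher at 1.5 h, at 1.85, than at 0.5 h, at 1.28. With unique reads alone, 66, 162, 106 and 68 reads, the ratio was 2.49 (1.86 to 3.37) at 0.5 h and 1.69 (1.23 to 2.33) at 1.5 h, so with these reads Dusp10 met the rule at 1.5 h too. Spliced reads of Dusp10, those across exon junctions, numbered 23, 46, 45 and 25, a ratio of 2.04 (1.21 to 3.53) at 0.5 h and 2.07 (1.23 to 3.59) at 1.5 h. At this depth the spliced reads of 0.5 and 1.5 h could not be told apart. A transcript on the other strand within Dusp10, 1700056E22Rik, reached at most 0.130 CPM.

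For Spry2 and Dusp2 the intervals of both kinds of reads overlapped at 0.5 h. Spry2 had 66, 111, 65 and 55 reads outside exons, a ratio of 1.72 (1.25 to 2.36) at 0.5 h against 1.78 in exons. Dusp2 had only 16, 60, 26 and 9, under the minimum, with a ratio of 3.82 (2.17 to 7.11) at 0.5 h against 3.48 in exons. Its spliced reads numbered 140, 507, 212 and 107, a ratio of 3.69 (3.06 to 4.49). The intervals of all 3 measures of Dusp2 overlapped. Annotated exons of Dusp2 cover 2003 bases between positions 127336159 and 127338376, so few of its bases can give reads outside exons. The part of this annotation in the overlap was not tested. Dusp6, also under the minimum, had 43, 22, 28 and 20 reads outside exons, 1.92-fold lower at 0.5 h (1.12 to 3.36) while its exon ratio was 1.20.

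The Spred genes had many reads outside exons that met no rule. Spred2 had 806, 946, 852 and 805, a ratio of 1.20 (1.09 to 1.32) at 0.5 h, and Spred1 had 184, 185, 225 and 200. Dusp4 had 6 to 19 per library, Spry1 7 to 23 and Dusp1 0 to 1. For Dusp1 the 0 reads in each of the control, 0.5 h and 1.5 h libraries allow at most 3. Annotated exons of Dusp1 cover 2697 bases between positions 26505590 and 26508519, so few of its bases can give such reads. Its low counts are therefore no measure of its unspliced RNA. At 1.5 h 1 of the 5 genes with enough reads met the rule, Dusp5, beside 5.21% of 9792 genes lower, and 0 met it higher on total reads, beside 10.9%. At 5 h 0 of 5 met it, beside 6.50% of 9820 genes higher and 1.97% lower. From 0.5 to 1.5 h Spry2 alone met it, at 1.65-fold lower (1.20 to 2.27), beside 4.18% of 9790 genes lower, and 0 were higher, beside 7.25%. From 1.5 to 5 h 0 of 5 met it, beside 7.83% of 9737 genes higher and 4.64% lower.

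**Figure D4:**
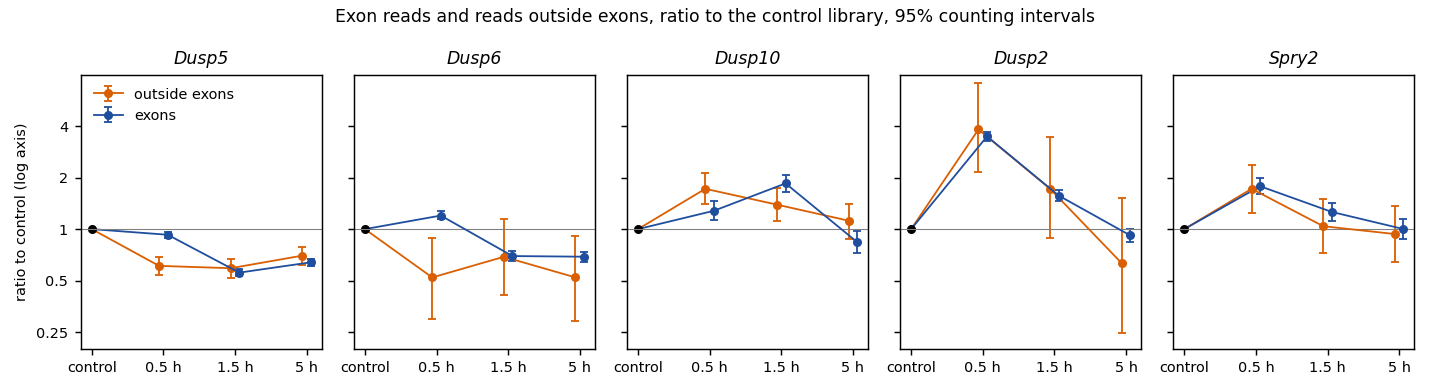
Ratio to the control library (log axis) of exon reads and of reads outside exons for Dusp5, Dusp6, Dusp10, Dusp2 and Spry2, with 95% counting intervals. At 0.5 h reads outside exons of Dusp5 are at 0.610 and its exon reads at 0.927, and for Dusp10 these are at 1.72 and 1.28.

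The genes whose course over the 4 libraries was closest to the called phosphatases were found by the distance between centred log2(CPM + 1) values, among 146 genes called against control at some time. Closest to Dusp2 was the immediate early gene Ier2, at a distance of 0.18, with 32.3 CPM in the control, 97.0 at 0.5 h, 49.6 at 1.5 h and 26.1 at 5 h. Next were Nfkbid, whose product modulates NF-kB in the nucleus, at 0.30 and Rhob, a small GTPase, at 0.32. Rhob, with 19.3, 58.5, 23.1 and 17.3 CPM, was also second for Dusp1 at 0.29. Zfp36l1, an mRNA decay factor, was first for Dusp1 at 0.28, but 5.65% of its reads were unique, so its values are uncertain. The last was Ppp1r15a, a stress-induced phosphatase subunit, at 0.35. These are distances over 4 libraries and carry no test.

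The rest of the pathway was described by 5 lists of 104 genes, of which 102 were found. Of 17 other dual-specificity phosphatases 9 were measured at 1.5 h, and 2 of these rose there, beside 0.641% of all genes measured. Dusp3, a small phosphatase of ERK and JNK, was at 22.2, 28.4, 58.3 and 28.9 CPM, and its ratio at 1.5 h was 2.63 (2.41 to 2.86), with 84.7% of its reads unique. Dusp16, a phosphatase of JNK, was at 29.9, 36.1, 64.5 and 37.9 CPM, with a ratio of 2.16 (2.004 to 2.33). Both were highest at 1.5 h. The list had 0 calls at 0.5 and 5 h and medians over all 17 genes of -0.04, -0.01 and -0.03, and Dusp23 had its largest uncalled ratio, 0.569 (0.465 to 0.693) at 5 h.

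Of 19 other Sprouty family, Ras and receptor feedback genes, 14 or 15 were measured and 0 were called at any time against control. The medians over all 19 were 0.00, 0.00 and -0.06. The largest ratios of measured genes were at 5 h, where the Ras GTPase activator gene Dab2ip was 1.74-fold lower (1.48 to 2.05), the adaptor gene Dok2 1.58-fold lower (1.41 to 1.77) and the GTPase activator gene Rasa3 1.45-fold lower (1.39 to 1.51). Rasa2, of the same GTPase activator group, lay as far above control at 5 h, with a ratio of 1.45 (1.35 to 1.57). Spry4 was at 0.637, 2.33, 3.25 and 1.04 CPM, under the floor of 5 CPM in every library.

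The kinase relays themselves had 0 calls against control among 23 measured genes of the ERK cascade and 17 of the JNK and p38 cascades. Medians over all genes found were -0.02, 0.05 and -0.01 for the 24 of ERK and -0.04, -0.00 and -0.06 for the 21 of JNK and p38. The largest ratios were again at 5 h. Rasgrp2, an exchange factor gene of the ERK list, went from 362 to 195 CPM, 1.86-fold lower (1.80 to 1.92), and 77.2% of its reads were unique. Mapk3, which encodes ERK1, went from 86.1 to 49.1 CPM, 1.76-fold lower (1.65 to 1.87). Rasgrp1, the exchange factor that diacylglycerol recruits, went from 21.3 to 32.4 CPM, a ratio of 1.52 (1.38 to 1.67). In the stress cascades the p38 gene Mapk11 was 1.71-fold lower (1.53 to 1.91), the kinase gene Map3k5 1.38-fold lower (1.30 to 1.47) and the JNK gene Mapk9 1.26-fold lower (1.16 to 1.37).

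The list of ERK-responsive transcripts held 21 genes, among them the factor genes Elk1, Elk3 and Elk4. Of the 21, 17 were measured at 0.5 h and 10 rose, beside 0.284% of all genes measured. The 10 were Egr1, Egr2, Egr3, Fos, Fosb, Jun, Junb, Ier2, Phlda1 and Myc. Egr1, a zinc finger factor, was at 1.77 CPM in the control, 153 at 0.5 h, 12.3 at 1.5 h and 3.61 at 5 h. At 1.5 h 6 were called higher, beside 0.641% of all genes measured, and at 5 h 0, beside 0.336%. Egr1, Egr2, Egr3, Fos and Fosb reached 5 CPM only in stimulated libraries, so they were measured only through a library where they were high. The counts called include such genes and are no independent support. The medians are therefore given over all 21 genes, at 0.86, 0.60 and 0.22. The 6 at 1.5 h were Egr1, Egr3, Junb, Phlda1, Myc and Srf, the last being the gene of serum response factor.

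**Figure D5:**
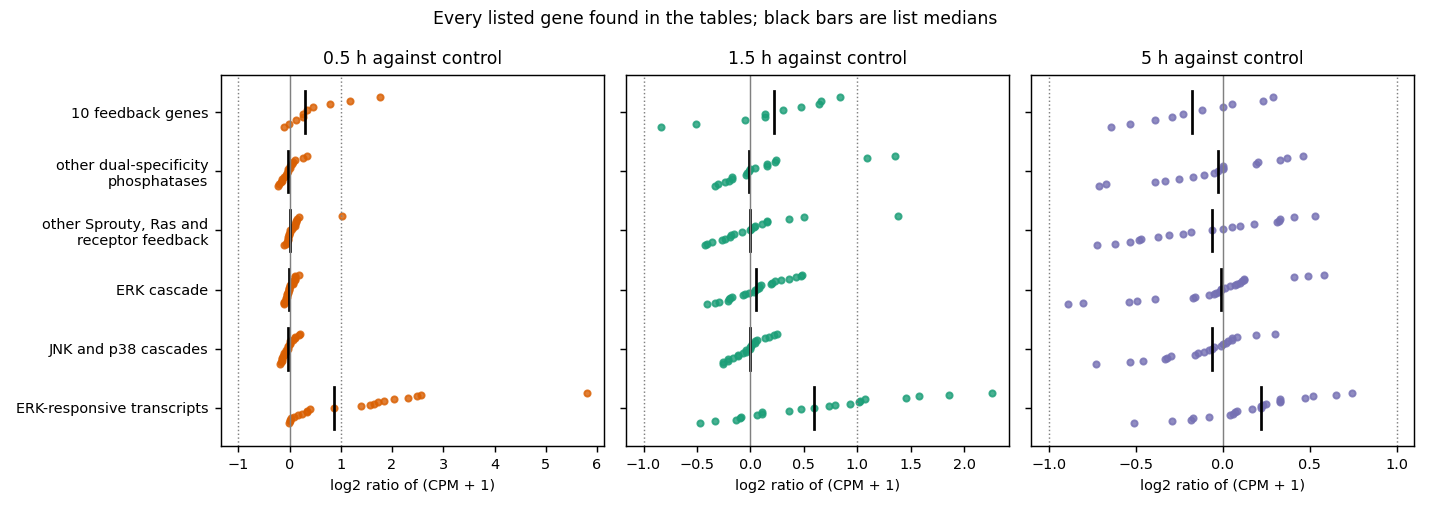
Log2 ratio to control of every gene found of each list at 0.5, 1.5 and 5 h, with black bars at list medians and dotted lines at 2-fold. The 10 feedback genes have medians of 0.30, 0.23 and -0.18, beside 0.86, 0.60 and 0.22 for ERK-responsive transcripts.

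The promoters shown above were searched with those of all members. The set of RefSeq promoters used here held an entry of 300 bases for 9 of the 10 genes, not for Dusp4. Its 32851 promoters of 300 bases, from 250 before to 50 after the gene start, gave the background. Both strands were searched. The cAMP response element TGACGTCA was in 1.79% of all promoters, and the shorter TGACGT, which overlaps it, in 7.51%. The E-box CACGTG was in 7.15%, the AP-1 motif TGANTCA in 7.81% and the CArG box in 1.63%. The EGR motif GCGNGGGCG was in 5.55% and the ETS core CCGGAA in 14.9%. Over the 9154 promoters of genes with at least 5 CPM in some library the shares were 3.32% for the cAMP response element, 12.6% for its shorter form, 10.6% for the E-box, 4.32% for AP-1, 1.09% for the CArG box, 10.5% for EGR and 31.0% for ETS. Positions count from the RefSeq start.

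In Dusp1 the cAMP response element lay at -143 to -136, the second TGACGT at -191 to -186 and an E-box at -126 to -121. Dusp2 held an E-box at -109 to -104 and an EGR match at -98 to -90. The CArG boxes of Dusp5 lay at -82 to -73 and -72 to -63, and a reverse TGACGT at -56 to -51. Only 6 of the 32851 promoters, or 0.0183%, held 2 CArG boxes, with that of Dusp5 counted among them. The others included Ceacam11, at 0 CPM in every library, and the predicted genes Gm33934 and Gm39572, which were not analysed here. Srf was also among the 6, at 13.6, 18.2, 28.7 and 9.24 CPM with 29.3% of its reads unique. Spry2 held CCGGAA at 34 to 39 and Spred2 a reverse TGACGT at -52 to -47, and the other 4 promoters held none of these letters. A match is a description of the sequence and not a binding site.

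The pentamer ATTTA in a 3′ UTR is the core of AU-rich elements, which mark many short-lived mRNAs. Among 8759 genes with at least 5 CPM in some library the median was 1.27 copies per kilobase of annotated 3′ UTR. Dusp2 had 4 copies in 581 bases, 6.88 per kilobase, a density that 3.11% of the genes reached. Dusp1 had 4 in 690 bases, 5.80 per kilobase, which 4.73% reached, and 3 copies of the longer TATTTAT. By density these were the highest of the 10. By number they were not, since Spred1 had 12 copies of ATTTA in 4330 bases, a number that 3.76% of genes reached, and Spred2 had 4, a number that 26.8% reached. Spred1 also had 3 copies of TATTTAT, and Spry1 and Spry2 had 2 each. Dusp10 had 2.70 per kilobase, Spred1 2.77, Spry2 2.34, Spry1 1.91, Dusp4 1.80 and Spred2 1.55. Dusp5 at 0.902 and Dusp6 at 0.841 were the least dense of the 10 and the only ones below the median of all genes.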

How the data were processed

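RNA of Blnk-/- pre-B cells carrying BLNK-ERt2 was selected for poly(A) and sequenced on an Illumina HiSeq after a TruSeq or NEBNext preparation, per the labels' protocols, and the labels do not tie a kit to a library. Submitters' processing notes name CASAVA 1.8.2 and build mm10, while the sources used here give no aligner, counting program or strand. Each deposited table holds, per the file headers, unnormalized counts of total and unique reads by lane for exons, whole genes, exon junctions and intron-exon boundaries. Unnormalized exon lengths and coordinates in the same tables are the authors' annotation. Control counts were the same in the 3 tables, and 0 columns were left unmatched.

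The 16 samples were read as 4 lanes of 4 libraries and the lanes summed, since the lanes share an index. Lanes held 7631791 to 8709054 total exon reads, no pair was identical, and the chi-square per degree of freedom between lanes was 0.992 to 1.01 for unique and 1.24 to 1.32 for total exon reads (genes of 20 or more reads). CPM is reads per 1000000 total exon reads. Log2 ratios were taken after adding 1 CPM, while the ratios printed use CPM as such and carry 95% intervals (exact, Clopper-Pearson); levels have exact Poisson intervals. Reads are not independent molecules, so intervals and floors cover counting error only. Reads outside exons are total gene reads minus total exon reads. Lane numbers were not used to pair samples, except as blocks in an alternative.

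Named were the 10 genes, every called gene of the 5 pathway lists and otherwise the 3 with the largest ratios, and the 3 closest genes to each called phosphatase; Spry4 and Rasa2 were added after their values were seen. The 10 genes, lists and promoter motifs were chosen with earlier results of these data known. Promoters are from RefSeq and 3′ UTRs from GENCODE vM21. Alternatives were TMM factors (edgeR 4.0.16), DESeq2 1.42.0 size factors, other added values and floors, unique exon reads, total gene reads, leaving out each lane, and lanes as blocks. Software was R 4.3.3 and Python 3.11.15 (scipy 1.17.1, numpy 2.4.6, pandas 2.3.3, matplotlib 3.10.9).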

Additional observations from a re-analysis of the deposited data

Results flagged for a closer look

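Among the 40 sets of 4 lanes, 1 for each gene and library, 4 held a lane far from the other 3, and chance alone marks about 1 set in 20. Dusp5 had a control lane at 144 CPM, with the nearest other at 133 CPM, and a 1.5 h lane at 70.4 CPM, with the nearest at 76.1 CPM. In the 1.5 h library Dusp6 had a lane at 44.0 CPM, with the nearest at 50.1 CPM, and Spred2 one at 73.5 CPM, with the nearest at 82.1 CPM. No call of these genes changed when any lane number was left out.

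Dusp2 and Dusp6 lay on opposite sides of the control at different times, with every lane of a library on the same side of every control lane. For Dusp2 at 5 h the gap was narrow, with lanes up to 33.7 CPM and control lanes from 33.8 CPM. The share of all genes with lanes apart in this way is not given here. The log2 ratios of Dusp2 were 1.77 at 0.5 h, 0.64 at 1.5 h and -0.12 at 5 h. Those of Dusp6 were 0.26, -0.51 and -0.53. The difference between times was not tested, since each time is 1 library and lanes are not replicates.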

How the results depend on the processing

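No direction of a called gene reversed. Labelled unchanged were 241 of 269 values of the counts and summaries and 786 of 800 values of single genes. For counts of called genes that label allowed up to 1.5-fold from the main count. For exon ratios it meant a call kept, or no call and a log2 ratio within the counting interval. The size of a called ratio was not part of it. Among the 10 genes, adding 5 CPM left 1 called higher at 0.5 h, 1 lower from 0.5 to 1.5 h and 0 lower from 1.5 to 5 h; a floor of 20 CPM left 1, 1 and 1; and total gene reads left 0 lower from 1.5 to 5 h. A minimum of 50 reads outside exons in place of 100, chosen after seeing the data, gave 5 genes in place of 3, with Dusp2 and Dusp6 added. Among all genes at 0.5 h, 4 were called lower with 0.1 CPM added, 0 with 5 CPM added, 1 with a floor of 20 CPM, 0 with unique exon reads, 4 with total gene reads and 1 to 4 without one lane, in place of 2, and 16 were called higher with a floor of 20 CPM in place of 27. Adding 5 CPM gave 32 higher and 6 lower at 1.5 h, 20 and 16 at 5 h, 10 and 10 from 0.5 to 1.5 h and 26 lower from 1.5 to 5 h. Adding 0.1 CPM gave 32 lower from 0.5 to 1.5 h and 14 higher from 1.5 to 5 h. A floor of 20 CPM gave 10, 21, 12 and 27 lower at 1.5 h, 5 h, 0.5 to 1.5 h and 1.5 to 5 h. Causes were not tested, except that a larger added value moves every ratio toward 1 and a higher floor leaves fewer genes measured. Over 24 pairs of same-numbered lanes the correlation of deviations was -0.05 to 0.05 across 7141 genes, so no effect shared by lane number was seen. Counting error between lanes could hide a small one, so this does not exclude pairing. With lanes as a replicate block 2 of the 10 genes were still called higher at 0.5 h, and no other call among the 10 changed. With 1 library per condition, depth limits Dusp1 most, at 63 to 251 reads.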
